A study of Mus musculus with 12 samples.

Results

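The 32 genes listed as writers, erasers and readers of protein acetylation were described in mouse CD8 T cells grown with or without dichloroacetate (DCA), an inhibitor of the pyruvate dehydrogenase kinases. The genes were taken by name, and 30 of the 32 were present in the authors' deposited table, among 15067 genes there and 56748 genes in the count table. They were 10 acetyltransferases, 9 HDACs, 7 sirtuins and 4 bromodomain readers. All 30 entered the test, in which 15688 genes were tested.

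Protein acetylation is set by acetyltransferases, which write acetyl groups onto lysines from acetyl-CoA, and by deacetylases, which remove them. The classical histone deacetylases (HDACs) are zinc enzymes, while the sirtuins consume NAD. Bromodomain proteins read acetylated lysines and recruit transcription and chromatin-remodelling complexes. In activated CD8 T cells these enzymes are known to take part in effector and memory gene programmes, and the nuclear acetyl-CoA supply is known to link them to carbon metabolism.

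Bulk RNA sequencing was done on 12 libraries from 6 T cell receptor transgenic mice, 3 in each of 2 experiments. In each experiment 3 libraries were untreated and 3 came from cells grown with 5 mM DCA, and the same mouse gave both arms. For experiment 1 the strain and genotype labels are OT-1, C57BL/6-Tg(TcraTcrb)1100Mjb/J, although the sample titles say Pmel-1. For experiment 2 the titles and the strain label both say Pmel-1, with the background B6.Cg-Thy1a/Cy and the transgene Tg(TcraTcrb)8Rest/J. Both strains carry a transgenic T cell receptor in every arm, so no group holds a normal receptor repertoire. The labels give no age for the mice. Whole spleens were stimulated for 24 hours with cognate peptide (SIINFEKL at 250 nM for OT-1, gp100 at 1 uM for pmel-1), expanded in IL-2 for 6 days with or without DCA, and sorted for CD8 on day 7. Experiment, strain, peptide and its dose, and technical batch coincide and cannot be told apart. Total counts per library lay between 28039699 and 41051066. The 7 CD8 T cell markers summed to 4556 to 6648 CPM (read counts scaled to a common library total) per library. CD4 T cell, B cell, myeloid or dendritic and erythroid marker lists summed to at most 3.38 CPM in any library, and 0 of the 6 B cell markers passed the filter on low counts. The NK cell list summed to 5.01 to 11.7 CPM in experiment 1 and 0.116 to 1.38 CPM in experiment 2. In bulk RNA, fewer cells of a type and less RNA per cell cannot be told apart.

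Both absent genes are HDACs. Hdac9, a class IIa enzyme, had 0 to 7 counts per library and did not pass the filter on low counts. Hdac11, the class IV enzyme, had 0 to 22 counts per library. It passed the filter, with a log2 fold change of 1.66 (SE 0.89) for DCA over both experiments and an adjusted p of 0.231 in edgeR's quasi-likelihood test. Neither was described further.

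The promoters of 4 members whose level changed over both experiments and that have 1 RefSeq start are shown, 3 of members that rose and 1 of a member that fell. They let a reader compare the start regions of members that moved alike. Each is the 250 bases before the start, written 5′ to 3′ on the gene's strand, from RefSeq on GRCm38.p6 (the reads were mapped to GRCm39, so the coordinates are not those of the counts). Capitals mark any match, on either strand, to the GC box GGGCGG, the CCAAT box CCAAT, the E-box CACGTG, the cAMP response element TGACGTCA or the ETS core CCGGAA. The sequences lie at chr15:81585964-81586213 on the plus strand for Ep300, chr11:102230173-102230422 on the minus strand for Hdac5, chr5:115484298-115484547 on the minus strand for Sirt4 and chr10:36974294-36974543 on the plus strand for Hdac2.
Ep300: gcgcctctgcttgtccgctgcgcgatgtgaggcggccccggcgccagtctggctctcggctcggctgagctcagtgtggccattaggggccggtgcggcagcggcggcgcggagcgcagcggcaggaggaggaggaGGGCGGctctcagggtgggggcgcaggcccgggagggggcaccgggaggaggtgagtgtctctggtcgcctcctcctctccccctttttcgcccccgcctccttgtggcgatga
Hdac5: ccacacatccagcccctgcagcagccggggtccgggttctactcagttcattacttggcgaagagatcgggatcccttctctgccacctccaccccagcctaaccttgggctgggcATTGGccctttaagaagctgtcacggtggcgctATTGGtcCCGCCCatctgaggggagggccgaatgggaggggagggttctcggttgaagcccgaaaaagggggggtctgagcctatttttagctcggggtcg
Sirt4: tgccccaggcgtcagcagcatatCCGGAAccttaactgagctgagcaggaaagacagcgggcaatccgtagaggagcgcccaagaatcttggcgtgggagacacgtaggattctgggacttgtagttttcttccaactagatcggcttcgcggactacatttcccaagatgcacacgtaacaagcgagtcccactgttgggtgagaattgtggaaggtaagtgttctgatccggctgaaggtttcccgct
Hdac2: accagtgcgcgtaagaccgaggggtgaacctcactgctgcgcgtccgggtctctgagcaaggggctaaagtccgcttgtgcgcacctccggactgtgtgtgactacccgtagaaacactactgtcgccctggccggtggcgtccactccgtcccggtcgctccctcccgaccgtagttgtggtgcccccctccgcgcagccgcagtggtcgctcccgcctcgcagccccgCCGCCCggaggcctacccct
The Ep300 stretch was 73.2% G and C with 25 CpG, and the Sirt4 stretch was 53.2% with 14 CpG. The Hdac5 stretch (60.8%, 12 CpG) held 2 CCAAT boxes and 1 GC box, the Ep300 and Hdac2 stretches 1 GC box each, and the Sirt4 stretch only an ETS core among these motifs. No motif among those searched was thus in all 3 promoters of members that rose. The GC box was in those of Ep300 and Hdac5 and not in that of Sirt4, and was also in that of Hdac2, which fell. Hdac7, which rose too, has 4 starts and is not shown. Promoters were in the table for 26 members, with 38 starts. A GC box stood before 63.2% of the member starts and 32.7% of all 32851 starts, and an ETS core before 31.6% and 12.03%. A CCAAT box stood before 34.2% and 33.8%, an E-box before 7.89% and 6.02%, and the cAMP response element before 0 of the 38 member starts and 1.55% of all starts. The median G and C content was 62.2% for member starts and 52.4% for all starts. Several starts of 1 gene overlap, and these shares describe the windows only.

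Compared per length, the machinery was uneven in each class. Levels are given here as CPM after TMM scaling (edgeR's scaling between libraries) divided by the gene length in the authors' table. Hat1, the type B acetyltransferase that acts on newly made histones, had the highest level of all 30 members, at 89.6 CPM per kilobase over the 12 libraries. It made up 68.7% of the summed level of the acetyltransferases. Next came the class I deacetylases Hdac1 (52.3), Hdac2 (26.7) and Hdac3 (19.6), the catalytic subunits of the main nuclear corepressor complexes. Hdac1 held 43.8% of the summed HDAC level. Sirt7, a nuclear and nucleolar sirtuin, stood at 19.6 CPM per kilobase, next to Hdac3, and held 39.8% of the sirtuin sum. Brd7, a subunit of a SWI/SNF remodelling complex, had the highest mean of the readers over the 12 libraries, at 9.72 with 36.9% of their sum. In experiment 2 Brd9 stood above it, at 8.59 against 6.77 CPM per kilobase untreated and 8.27 against 6.59 with DCA. At the low end were Sirt5 (1.29), Hdac5 (0.887) and Kat6b (0.242 CPM per kilobase).

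Neighbours in this order often could not be separated. In untreated cells of experiment 1, Kat7 (7.75 ± 1.09, SD, n = 3), Kat2a (7.69 ± 1.09) and Brd9 (7.58 ± 0.83) lay within each other's spread. Hat1 (128 ± 3.69) and Hdac1 (49.2 ± 4.10) lay far outside it. In untreated cells of experiment 2 the same 2 genes were at 56.6 ± 4.82 and 60.5 ± 2.44 CPM per kilobase, so the order of Hat1 and Hdac1 by mean was the other way round.

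**Figure D1:**
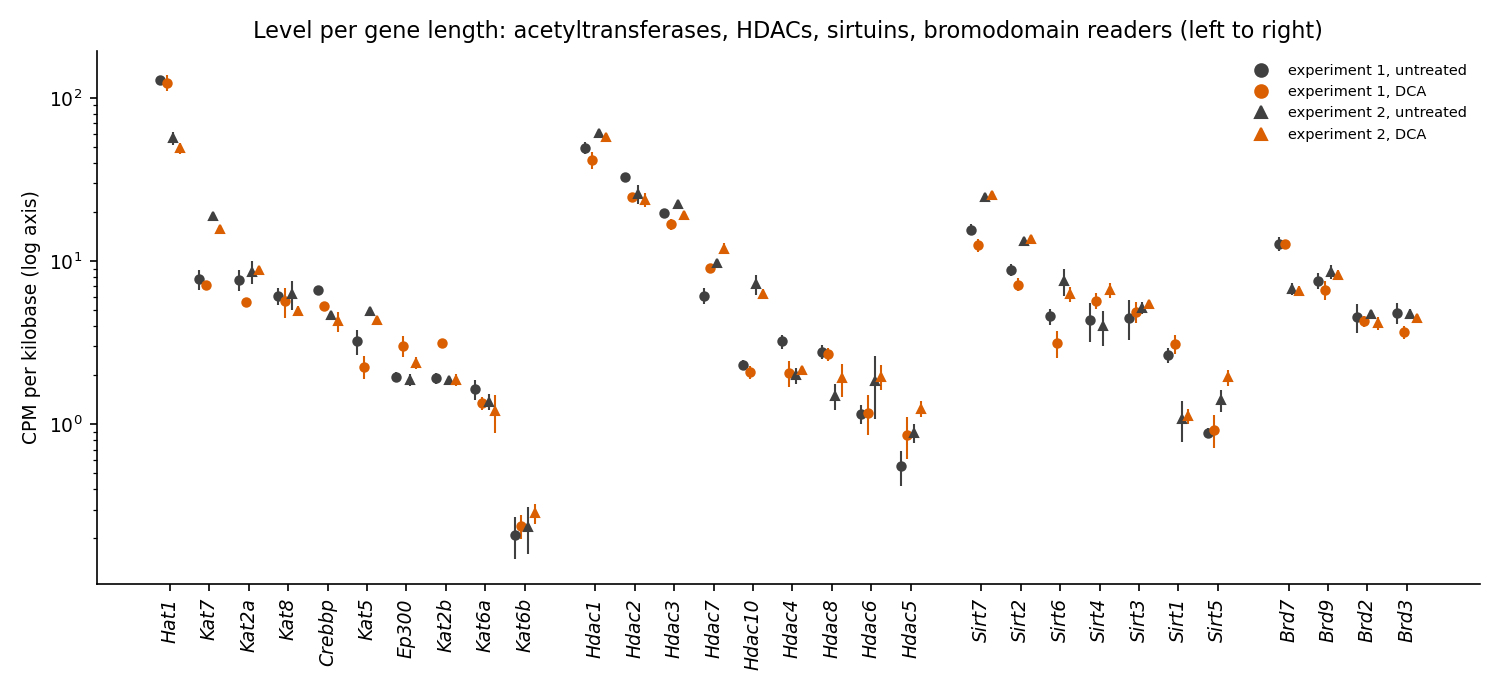
Level of each of the 30 members per gene length (CPM after TMM scaling per kilobase, log axis) in the 4 groups. Points are means of 3 libraries and bars are SD, with members ordered by their mean within each class. Hat1 and Hdac1 are the highest and Kat6b the lowest.

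Over both experiments, DCA changed 7 of the 30 members at an adjusted p under 0.05. The acetyltransferase Ep300, the class IIa deacetylases Hdac7 and Hdac5 and the mitochondrial sirtuin Sirt4 were higher with DCA. The class I deacetylases Hdac3 and Hdac2 and the nuclear sirtuin Sirt6 were lower. The 4 of 30 higher stand beside 7.01% of all tested genes called higher, and the 3 of 30 lower beside 9.80% called lower. For 30 genes those shares come to about 2 and 3 genes, so the members' counts are near the background. With cyclic loess scaling 1231 genes were called higher and 1036 lower, against 1100 and 1538 with TMM. The median log2 fold change was −0.13 over the members and −0.015 over all genes tested, and 11 members lay above 0. Under cyclic loess scaling the members' median was −0.043, and 12 lay above 0. All changes were modest, with fitted folds between 0.757 and 1.48 for the members called. TMM factors moved with DCA too. They were 0.818 to 0.845 in untreated and 0.910 to 0.934 in DCA libraries of experiment 1, and 1.12 to 1.13 and 1.15 to 1.17 in experiment 2. Their part in the small differences was not tested beyond the alternative scalings. The list of proliferation genes moved as well, with 13 of 16 genes lower and a median of −0.26 on the log2 scale, beside 9.80% of all genes called lower. The myeloid and dendritic cell list, of which 2 of 8 genes passed the filter and 0 were called, had sums of 0.976 to 1.94 CPM in untreated libraries of experiment 1, against 2.34 to 3.38 CPM in their DCA counterparts. The experiment 2 sums were 0.481 to 0.879 CPM without DCA, against 0.909 to 2.92 CPM in its presence. Of the 7 CD8 T cell markers, 2 were called lower (Cd8b1 and Cd2). The part of these lists in the members' changes was not tested.

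Among the acetyltransferases, 1 of 10 was called higher and none lower, beside 7.01% and 9.80% of all tested genes. With RLE size factors in place of TMM, 1 was called higher and 1 lower, beside 1058 and 1680 of all genes. With TMM, an unadjusted p under 0.05 was reached by 5 of the acetyltransferases, and by 4700 of all 15688 genes. Ep300 and its close relative Crebbp are large coactivators that acetylate histones and many transcription factors. Ep300 was at 29.3, 28.4 and 25.7 CPM in the untreated libraries of experiment 1 and at 48.9, 36.4 and 44.0 with DCA in mice 1 to 3. The same gene in experiment 2 was at 29.5, 25.8 and 25.0 CPM untreated and at 35.1, 36.3 and 30.6 with DCA. Every DCA library was above every untreated library of the same experiment. The log2 fold change was 0.49 (SE 0.10, adjusted p 0.0034 in edgeR's quasi-likelihood test, higher in 6 of 6 mice).

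Crebbp leaned the other way. It was at 86.1, 90.9 and 92.4 CPM untreated and 73.2, 73.3 and 70.0 with DCA in experiment 1. Its experiment 2 values were 65.5, 63.3 and 61.1 CPM untreated and 61.9, 62.9 and 48.7 with DCA. The groups were apart in experiment 1 and overlapped in experiment 2. Over both experiments the difference was −0.22 (SE 0.07) with an adjusted p of 0.0503, which misses the threshold. None of the MYST-family enzymes (Kat5, Kat6a, Kat6b, Kat7 and Kat8) was called by edgeR's quasi-likelihood test. Their differences ran from −0.35 for Kat5 (SE 0.12, adjusted p 0.0618, edgeR) to 0.23 for Kat6b (SE 0.20), the least abundant member. With cyclic loess and limma Kat5 passed, at −0.40 (adjusted p 0.0376). Hat1 had a difference of −0.13 (SE 0.07, adjusted p 0.225).

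Of the 9 HDACs, 2 were called higher and 2 lower, beside 7.01% of all tested genes called higher and 9.80% called lower. Both higher ones were class IIa enzymes and both lower ones class I enzymes. Class IIa enzymes shuttle between cytoplasm and nucleus and repress factors of the MEF2 family. Hdac7, the class IIa enzyme known for its part in thymocyte and cytotoxic T cell programmes, was at 36.2, 42.3 and 45.6 CPM untreated and 63.3, 58.8 and 62.4 with DCA in experiment 1. Values in experiment 2 were 68.3, 61.4 and 67.8 CPM untreated and 87.3, 79.3 and 75.0 with DCA. The DCA and untreated groups did not overlap in either experiment. The log2 fold change was 0.43 (SE 0.08, adjusted p 0.0025, higher in 6 of 6 mice).

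Hdac5 was a low-level gene with the same direction. Its values were 6.09, 3.73 and 4.77 CPM untreated and 8.21, 5.13 and 9.35 with DCA in experiment 1, where the groups overlapped. The experiment 2 libraries held 8.92, 6.97 and 7.48 CPM untreated and 10.3, 12.3 and 10.2 with DCA, without overlap. The difference was 0.56 (SE 0.17, adjusted p 0.0304, higher in 6 of 6 mice). With cyclic loess scaling the adjusted p was 0.0796, and the call was lost in 9 of 20 alternatives, 7 of them the removal of 1 library. Hdac4, the third class IIa enzyme tested, was not called over both experiments (−0.26, SE 0.14, adjusted p 0.225).

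Of the class I enzymes, Hdac3, the catalytic subunit of the NCoR and SMRT corepressors, was at 81.1, 81.0 and 78.5 CPM untreated and 65.8, 73.7 and 64.8 with DCA in experiment 1. Experiment 2 gave 91.3, 89.0 and 92.9 CPM untreated and 76.5, 80.8 and 77.1 with DCA. All 6 mice were lower with DCA and the groups were apart in both experiments. The log2 difference was −0.23 (SE 0.06, adjusted p 0.0120). Cyclic loess scaling gave −0.13 with an adjusted p of 0.120.

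Hdac2, a subunit of the NuRD, Sin3 and CoREST complexes with Hdac1, was at 148, 153 and 141 CPM untreated and 110, 107 and 113 with DCA in experiment 1. For experiment 2 the values were 124, 125 and 97.1 CPM untreated and 94.1, 113 and 111 with DCA. The groups were apart in experiment 1 and overlapped in experiment 2, where mouse 3 was higher with DCA. Over both experiments the difference was −0.27 (SE 0.08, adjusted p 0.0322). The call was lost with a replicate block for the mouse (adjusted p 0.0770) and with cyclic loess scaling (0.163), and held in 8 of 20 alternatives, 3 of the 12 removals of 1 library among them. Hdac1 had a difference of −0.16 (SE 0.07, adjusted p 0.125). Hdac6, Hdac8 and Hdac10 lay between −0.17 and 0.15 and were not called.

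Of the sirtuins, 1 of 7 was called higher and 1 lower, beside 7.01% and 9.80% of all tested genes. Sirt4, Sirt3 and Sirt5 are the mitochondrial members. Sirt4 is known to act on pyruvate dehydrogenase and on glutamine use. Its level was 7.18, 12.07 and 12.01 CPM untreated and 12.14, 15.0 and 14.1 with DCA in experiment 1. Experiment 2 libraries were at 7.73, 12.2 and 8.83 CPM untreated and 16.2, 17.3 and 14.1 with DCA. The arms did not overlap in either experiment, by a margin of under 0.1 CPM in experiment 1. The log2 difference was 0.56 (SE 0.16, adjusted p 0.0222, higher in 6 of 6 mice). Sirt3 (0.09, SE 0.12) and Sirt5 (0.27, SE 0.15) were not called.

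Sirt6, a chromatin-bound nuclear sirtuin, was at 14.4, 12.1 and 11.9 CPM untreated and 7.37, 8.35 and 10.6 with DCA in experiment 1. Its experiment 2 values were 20.9, 17.2 and 24.9 CPM untreated and 16.6, 19.5 and 16.2 with DCA. The groups were apart in experiment 1 and overlapped in experiment 2, with mouse 2 higher with DCA. The difference was −0.40 (SE 0.13, adjusted p 0.0430). With the replicate block the adjusted p was 0.0991, and the call was lost in 13 of 20 alternatives. Cyclic loess with limma kept it, at −0.44 (adjusted p 0.0304). Sirt1 (0.13, SE 0.14), Sirt2 (−0.13, SE 0.08) and Sirt7 (−0.14, SE 0.08) were not called over both experiments.

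None of the 4 bromodomain readers was called over both experiments, and 1 of 4 had an unadjusted p under 0.05, beside 4700 of all 15688 genes. The differences were −0.24 for Brd3 (SE 0.10, adjusted p 0.104) and −0.13 for Brd2 (SE 0.10), the BET proteins among the members. Brdt, a BET protein that is not a member, was called higher and is named with the other readers below. They were −0.12 for Brd9 (SE 0.09) and −0.02 for Brd7 (SE 0.07), the SWI/SNF subunits. Brd7 changed sign with cyclic loess scaling, to 0.055. By DESeq2 Brd3 passed, with an adjusted p of 0.0429.

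The calls for Ep300, Hdac7 and Sirt4 held in 19 of 20 alternatives each, and Hdac3 in 17. The exception for all of them was the fit with no term for experiment, which called 0 members and 46 genes. Hdac3 was also lost with cyclic loess scaling and with no filter on low counts. Without replicate 1 of the DCA group of experiment 1 the count of members called over both experiments was 4. In the authors' deposited table of DCA against untreated cells, 3 members had a false discovery rate under 0.05. They were Hdac7 (0.00876), Ep300 (0.0106) and Sirt4 (0.0430) in the authors' deposited table, which gives 0.0593 for Hdac5 and 0.116 for Hdac3.

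**Figure D2:**
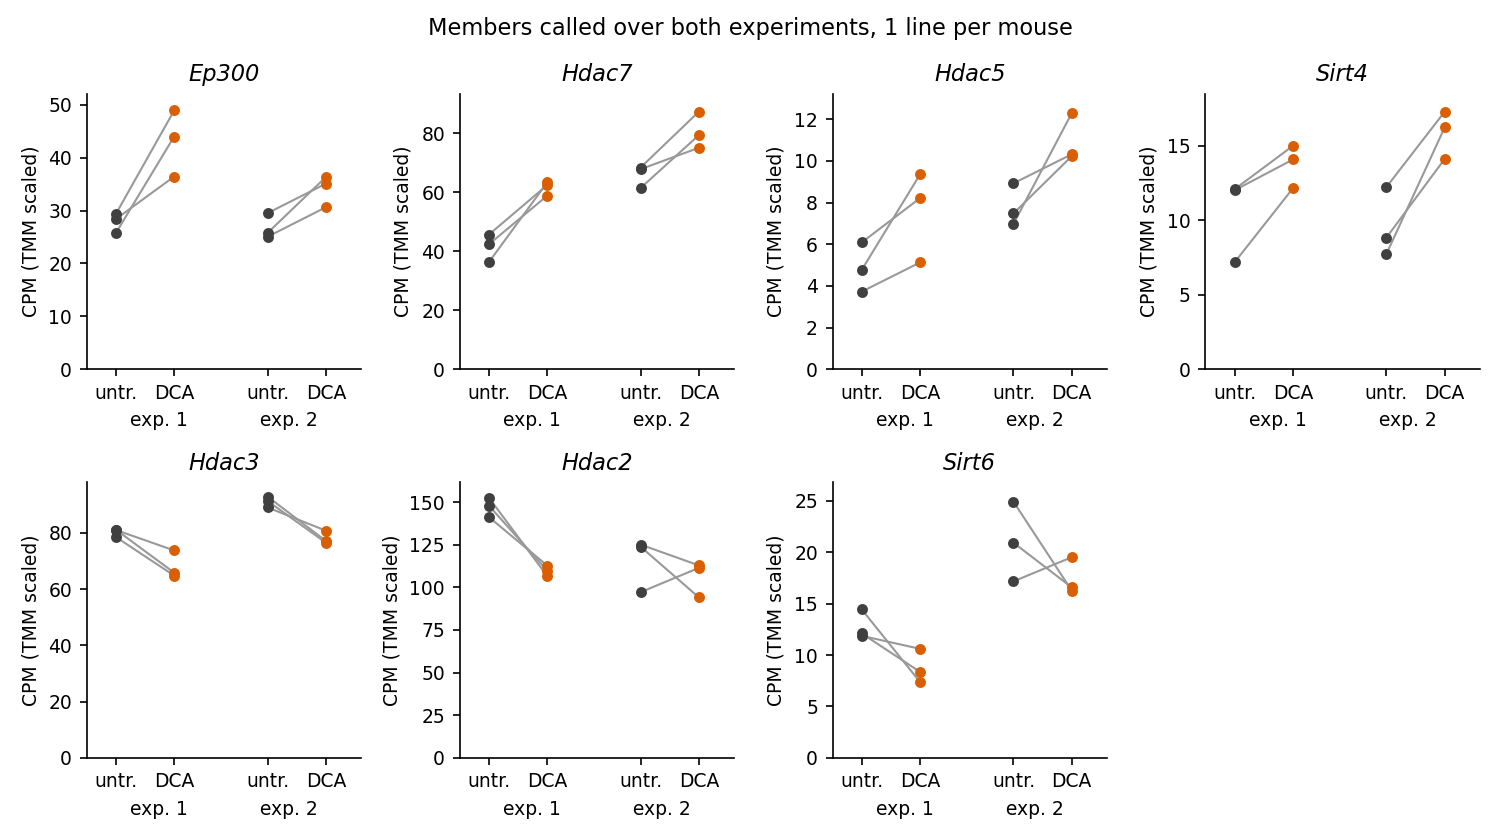
CPM after TMM scaling of the 7 members called over both experiments, with 1 line per mouse from its untreated (grey) to its DCA library (orange). Lines rise in 6 of 6 mice for Ep300, Hdac7, Hdac5 and Sirt4 and fall in 6 of 6 for Hdac3, while 1 mouse of experiment 2 goes the other way for Hdac2 and for Sirt6.

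By the contrast for experiment 1 in the fit of all 12 libraries, DCA changed 10 members, 3 higher and 7 lower. Beside them, 5.67% of all genes were called higher and 11% lower. These were 889 and 1733 genes, against 1083 and 1041 with cyclic loess scaling. With only the libraries of experiment 1 fitted, 5 members were called, 3 higher and 2 lower, beside 557 and 694 of all genes. Kat2b, the acetyltransferase also called PCAF, had the highest rise. It was at 8.54, 9.66 and 9.89 CPM untreated and 14.9, 14.6 and 16.4 with DCA, a log2 fold change of 0.71 (SE 0.15, adjusted p 0.0050). Values in experiment 2 were 8.71, 9.52 and 9.08 CPM untreated and 8.58, 10.1 and 8.79 with DCA (0.01, SE 0.15, adjusted p 0.989). All DCA libraries of experiment 1 stood above the other 9 libraries. Its relative Kat2a (GCN5), the other acetyltransferase of the SAGA and ATAC complexes, went the other way in experiment 1. Kat2a was at 27.2, 30.3 and 22.7 CPM untreated and 19.9, 18.9 and 19.7 with DCA (−0.46, SE 0.14, adjusted p 0.0355). The replicate block took this to an adjusted p of 0.0518. In experiment 2 the Kat2a groups overlapped (0.03, SE 0.14).

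Hdac4 fell in experiment 1, from 53.1, 45.3 and 54.6 CPM untreated to 26.7, 32.6 and 38.7 with DCA. The log2 difference was −0.64 (SE 0.14, adjusted p 0.0056). The experiment 2 libraries held 33.1, 34.0 and 27.5 CPM untreated and 33.9, 35.3 and 33.6 with DCA, a difference of 0.12 (SE 0.14, adjusted p 0.721). The untreated libraries of experiment 1 stood above all other libraries. Thus the class IIa deacetylases did not move as a block in experiment 1, where Hdac7 was higher (0.57, SE 0.10, adjusted p 0.0020), Hdac4 lower, and Hdac5 not called (0.64, SE 0.24, adjusted p 0.0885).

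The other calls in experiment 1 were Ep300 (0.63, SE 0.13, adjusted p 0.0042), Hdac2 (−0.42, SE 0.10, adjusted p 0.0106), Sirt7, Crebbp, Brd3 and Kat5. Sirt7 was at 87.2, 77.2 and 76.6 CPM untreated and 59.2, 70.5 and 63.2 with DCA (−0.32, SE 0.09, adjusted p 0.0233). Experiment 2 gave 127, 121 and 134 CPM untreated and 127, 126 and 140 with DCA (0.04, SE 0.09). The arms were apart in experiment 1 and overlapped in experiment 2. Crebbp gave −0.32 (SE 0.10, adjusted p 0.0398). These calls held in 8 of 20 alternatives for Sirt7 and 5 of 20 for Crebbp, and that of Kat2a also held in 5. With cyclic loess scaling the differences were −0.17 for both Sirt7 and Crebbp (adjusted p 0.204 and 0.276).

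Brd3, a BET reader, was at 37.3, 39.2 and 29.6 CPM untreated and 25.0, 26.2 and 29.7 with DCA (−0.39, SE 0.12, adjusted p 0.0436). For experiment 2 the values were 37.4, 33.6 and 33.1 CPM untreated and 31.4, 34.8 and 31.7 with DCA, so its arms overlapped in both experiments. Kat5, the catalytic subunit of the NuA4 complex, was at 13.1, 9.12 and 11.7 CPM untreated and 7.75, 9.25 and 6.74 with DCA (−0.51, SE 0.17, adjusted p 0.0490). Its experiment 2 values were 17.6, 17.4 and 17.4 CPM untreated and 16.0, 15.3 and 14.5 with DCA, where the groups were apart but the difference was not called (−0.19, SE 0.16). The replicate block ended the calls of Brd3 (adjusted p 0.0954) and Kat5 (0.0998), and each held in 4 of 20 alternatives. Cyclic loess with limma kept the call of Kat5 (−0.53, adjusted p 0.0452) and not that of Brd3 (−0.29, adjusted p 0.118). Ep300, Hdac7, Kat2b and Hdac4 were called in experiment 1 in all 20 alternatives run for them, and Hdac2 in 19 (0.0878 with cyclic loess). The count of members called dropped from 10 to between 5 and 6 on leaving out any 1 of 8 libraries: replicate 1 of either experiment 1 group, or any library of experiment 2.

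Within experiment 2, edgeR's quasi-likelihood test called 0 members, beside 2.37% of all genes called higher and 2.20% called lower (372 and 345 genes, against 374 and 206 with cyclic loess scaling). At an unadjusted p under 0.05 there were 7 members, namely Sirt4, Sirt5, Hdac7, Ep300, Hdac3, Kat7 and Hat1, beside 2870 of all 15688 genes. DESeq2 called 3 (Hdac3, Sirt4 and Kat7), limma-voom 1 (Sirt4) and cyclic loess with limma 0. Sirt4 had the largest difference, at 0.73 (SE 0.22, adjusted p 0.0742), and passed with the replicate block (0.0499) and without replicate 1 of the untreated group of experiment 1 (0.0392). Sirt5, a desuccinylase of mitochondria, was at 0.46 (SE 0.20, adjusted p 0.226). Ep300 (0.35, SE 0.13, adjusted p 0.147), Hdac7 (0.29, SE 0.10, adjusted p 0.124) and Hdac3 (−0.22, SE 0.08, adjusted p 0.128) had the sign they had in experiment 1.

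**Figure D3:**
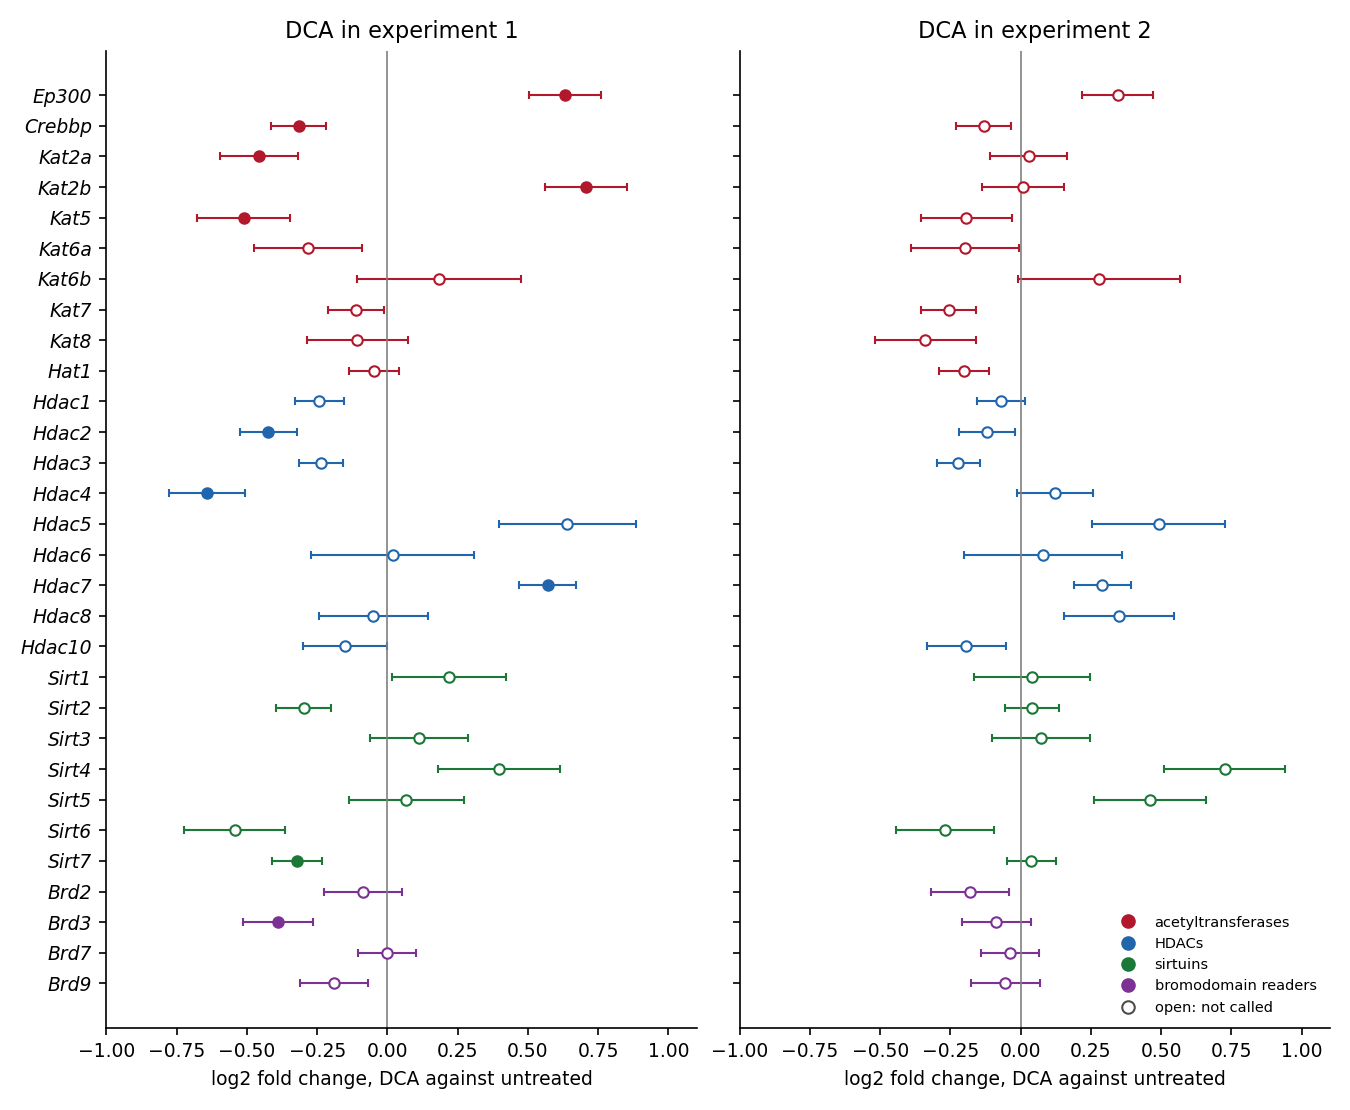
Log2 fold change of DCA against untreated cells for the 30 members in each experiment, with bars of 1 SE. Filled points passed an adjusted p of 0.05 in edgeR's quasi-likelihood test. In experiment 1 there are 10 filled points, and in experiment 2 there are 0.

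The DCA effects of the experiments were compared directly by an interaction contrast (experiment 2 minus experiment 1). edgeR's quasi-likelihood test called 0 members, beside 0.280% of all genes called higher and 0.0510% called lower. The unadjusted p was under 0.05 for 6 members, namely Hdac4, Kat2b, Sirt7, Kat2a, Sirt2 and Hdac2, beside 2226 of all 15688 genes. The difference of effects was 0.76 for Hdac4 (SE 0.19, adjusted p 0.0926) and −0.70 for Kat2b (SE 0.21, adjusted p 0.139). DESeq2 called both (adjusted p 0.0147 and 0.0286), limma-voom and cyclic loess with limma called 0 members, and edgeR with no filter on low counts called Hdac4 (0.00993). A call in experiment 1 and none in experiment 2 is therefore not shown to be a difference between them for any member by the edgeR test with the filter.

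Ratios of related genes within a library do not depend on a single scaling factor per library, such as that of TMM. Cyclic loess scaling depends on the level and can change them, and was not applied to the ratios. They were computed for 11 pairs as log2 ratios of counts with 0.5 added, as DCA minus untreated of the same mouse. The pair of Hdac7 and Hdac9 was left out for lack of Hdac9 counts. The ratio of Ep300 to Crebbp shifted by 0.972, 0.672 and 1.17 in mice 1 to 3 of experiment 1 and by 0.330, 0.507 and 0.618 in experiment 2. The mean was 0.71 ± 0.31 (SD, n = 6 mice), with p = 0.03125 in an exact two-sided sign-change test and 0.172 after adjustment over the 11 pairs. Hdac4 against Hdac5 gave −1.42, −0.934 and −1.47 in experiment 1 and −0.173, −0.762 and −0.163 in experiment 2. Its mean was −0.82 ± 0.57 (SD, n = 6), with the same exact p of 0.03125 and adjusted p of 0.172. All 6 mice went 1 way in each of these pairs. In both pairs the shifts were of greater size in every mouse of experiment 1 than in any of experiment 2.

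Kat2a against Kat2b gave −1.24, −1.28 and −0.935 in experiment 1 and −0.0678, −0.144 and 0.321 in experiment 2 (mean −0.56 ± 0.68, exact p = 0.15625). The experiment 1 and 2 values lay well apart. Sirt2 against Sirt3 averaged −0.24 ± 0.27, with 5 of 6 mice below 0 (exact p = 0.0625). Kat6a against Kat6b averaged −0.52 ± 0.41, with 5 of 6 mice below 0 (exact p = 0.0625), and Sirt6 against Sirt7 −0.26 ± 0.32, with 4 of 6 below 0 (exact p = 0.125). Hdac6 against Hdac10 averaged 0.24 ± 0.48. Hdac1 against Hdac2, Brd7 against Brd9, Brd2 against Brd3 and Kat7 against Kat8 had means between 0.04 and 0.11 with SDs of 0.26 to 0.40. No pair passed after adjustment. The smallest p that 6 mice allow is 0.03125, so at least 7 of the 11 pairs would have to reach it before any could pass. Without the pairing by mouse, 2 pairs passed, Ep300 with Crebbp and Hdac4 with Hdac5 (adjusted exact permutation p 0.0275 for both).

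**Figure D4:**
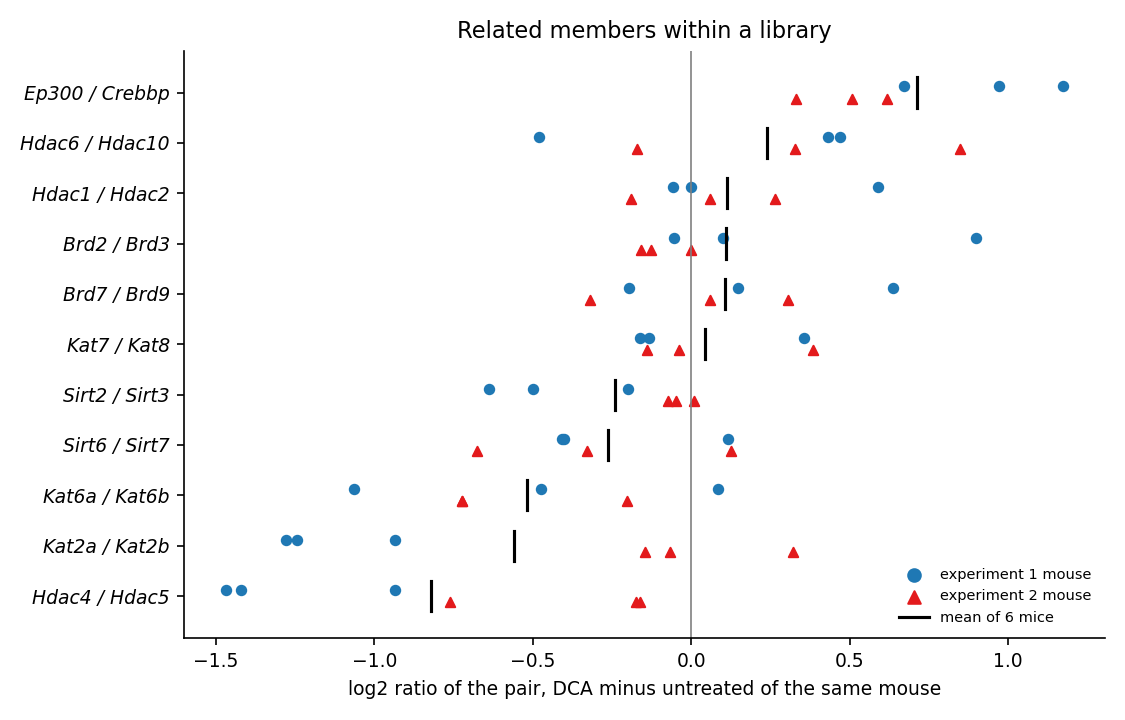
Change of the log2 ratio of 11 pairs of related members, DCA minus untreated of the same mouse, for 3 mice of each experiment, with the mean as a bar. All 6 mice lie above 0 for Ep300 to Crebbp and below 0 for Hdac4 to Hdac5.

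More members were called between the experiments than between the arms. In untreated cells, 10 of 30 members were higher in experiment 2 and 7 lower, beside 26.7% of all genes called higher and 25.2% called lower. In DCA-treated cells, 13 were higher and 7 lower, beside 28.1% and 24.1%. The members' shares were thus of the order of those of all genes. The median of all genes in the untreated comparison was 0.11 on the log2 scale with TMM and −0.013 with cyclic loess scaling. The differences of some members, such as Hat1, Hdac1 and Hdac2 below, moved by more than that. That of Hdac4 moved by less, from −0.70 to −0.67. Hdac3 (0.18 with TMM, 0.45 with cyclic loess, adjusted p 1.2e-04) and Brd9 (0.18 and 0.33, adjusted p 0.0320) passed with cyclic loess and not with TMM. Strain label, stimulating peptide and its dose, technical batch and experiment change together in these comparisons.

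Hat1 had the clearest fall among the writers. It was at 376, 358 and 378 CPM untreated and 334, 405 and 335 with DCA in experiment 1, against 148, 167 and 175 untreated and 131, 143 and 152 with DCA in experiment 2. Experiment 2 was lower in every library, by a log2 difference of −1.18 (SE 0.09) in untreated cells with TMM and −0.64 with cyclic loess scaling. Kat7, the catalytic subunit of the HBO1 complex, went the other way. It was at 47.6, 45.0 and 36.1 CPM in untreated cells of experiment 1 and 107, 104 and 101 in those of experiment 2, a difference of 1.28 (SE 0.10). Kat5 was higher in experiment 2 (0.63, SE 0.16, adjusted p 0.0048) and Crebbp lower (−0.50, SE 0.10). Cyclic loess scaling gave 0.41 for Kat5 (adjusted p 0.0477) and −0.27 for Crebbp (adjusted p 0.0326).

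Of the erasers, Hdac10, a class IIb enzyme known as a polyamine deacetylase, had the largest difference of all members. It was at 8.23, 7.24 and 7.95 CPM in untreated cells of experiment 1 and 20.5, 25.8 and 26.9 in those of experiment 2 (1.65, SE 0.15). Hdac7 (0.67, SE 0.10), Hdac5 (0.68, SE 0.24, adjusted p 0.0287) and Hdac1 (0.30, SE 0.09, adjusted p 0.0098) were also higher in experiment 2. Hdac8 (−0.90, SE 0.20, adjusted p 0.0014), Hdac4 (−0.70, SE 0.14) and Hdac2 (−0.35, SE 0.10, adjusted p 0.0084) were lower. The Hdac2 difference became 0.016 with cyclic loess scaling, and its call was lost without replicate 3 of the untreated group of experiment 2 (adjusted p 0.176). The Hdac1 call was lost without replicate 2 of the untreated group of experiment 1 (0.0515), while cyclic loess scaling took its difference to 0.78 (adjusted p 1.4e-06). Hdac5 was lost with cyclic loess scaling (0.145), and without replicates 2 or 3 of the untreated group of experiment 1 (0.115 and 0.0637) or replicate 1 of that of experiment 2 (0.0646).

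The sirtuins split. Sirt1, a nuclear sirtuin, was at 13.4, 13.3 and 15.9 CPM in untreated cells of experiment 1 and 6.05, 4.03 and 7.27 in those of experiment 2 (−1.29, SE 0.21). Sirt2 (0.59, SE 0.10), Sirt5 (0.67, SE 0.20, adjusted p 0.0123), Sirt6 (0.72, SE 0.18, adjusted p 0.0033) and Sirt7 (0.67, SE 0.09) were higher, with Sirt5 lost under cyclic loess scaling (adjusted p 0.124). The summed sirtuin level per length was 41.4 ± 1.65 CPM per kilobase in untreated cells of experiment 1 and 57.3 ± 2.45 in those of experiment 2 (SD, n = 3 each). Among the readers, Brd7 was at 71.7, 70.0 and 59.2 CPM in experiment 1 and 33.1, 34.7 and 38.6 in experiment 2, untreated (−0.92, SE 0.11). The other 3 readers were not called in untreated cells with TMM.

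**Figure D5:**
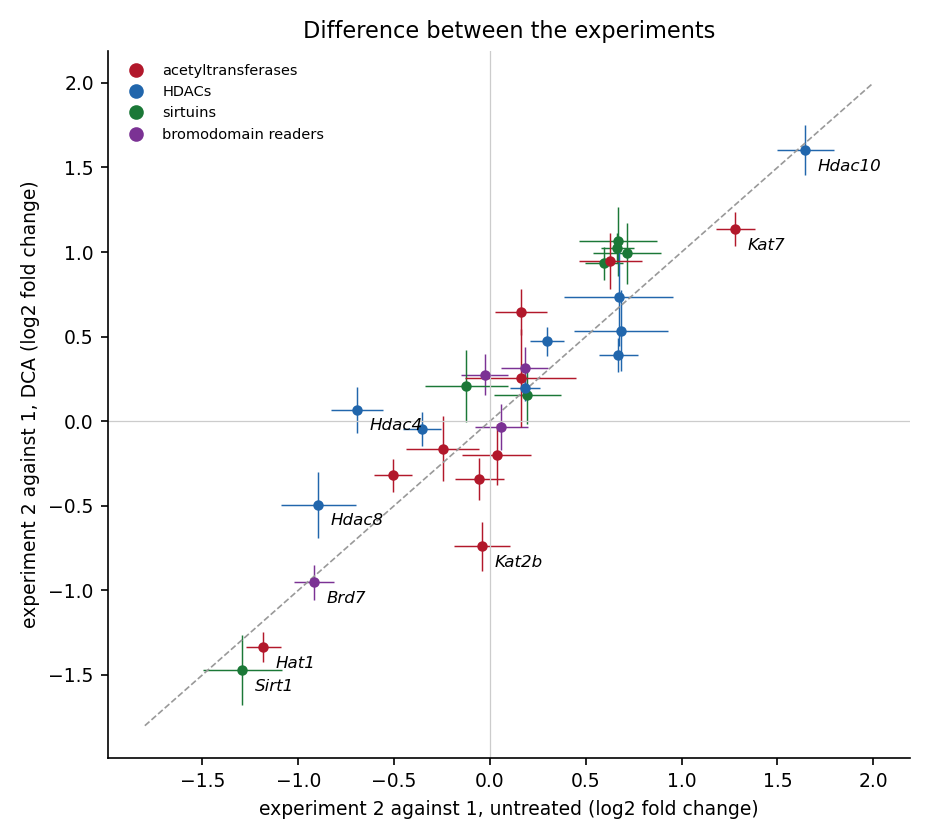
Log2 fold change of experiment 2 against experiment 1 for the 30 members in untreated cells (x axis) and DCA-treated cells (y axis), with bars of 1 SE and a dashed line of equality. Hdac10 and Kat7 stand at the upper right and Sirt1 and Hat1 at the lower left, while Hdac4 and Kat2b stand off the line.

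The surrounding machinery was described over both experiments from lists of complex subunits, other readers and NAD enzymes. Of 40 subunits of acetyltransferase complexes, 0 were called higher and 4 lower, with a median of −0.064. Over all genes 7.01% were called higher and 9.80% lower, so 4 of 40 lower is near the background, and the other lists here are read beside the same shares. Morf4l2, a subunit shared by NuA4 and Sin3 complexes, had −0.35 (SE 0.06, adjusted p 0.0022), Ncoa3 −0.33 (SE 0.10, adjusted p 0.0299) and Tada1 −0.43 (SE 0.13, adjusted p 0.0308). Ing5 was the other gene called lower, and is named after its values were seen. Of 38 tested subunits of deacetylase complexes, 3 were higher and 3 lower, with a median of −0.061, which is also near those shares. The higher ones were the Sin3 subunit Suds3 (0.49, SE 0.08, adjusted p 0.0015) and the NuRD subunits Chd3 (0.36, SE 0.11, adjusted p 0.0366) and Mbd2 (0.20, SE 0.07, adjusted p 0.0450). The lower ones were Sap18 (−0.26, SE 0.05, adjusted p 0.0019), Rbbp4 (−0.23, SE 0.06, adjusted p 0.0213) and Mta3 (−0.25, SE 0.08, adjusted p 0.0314). With cyclic loess scaling none of the 3 lower genes passed (adjusted p 0.133, 0.235 and 0.176), nor did Chd3 (0.0580). The replicate block took Tada1 (0.0762), Chd3 (0.0780), Mbd2 (0.0841), Rbbp4 (0.0565) and Mta3 (0.0552) past the threshold.

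Of 28 tested genes listed as other acetyl-lysine readers, 7 were called higher and 0 lower, beside 7.01% and 9.80% of all genes. Their median was 0.090, against −0.015 over all genes. The lists were chosen with earlier results of these data known, and no test of this share was run. Mllt3, a YEATS-domain subunit of the super elongation complex, rose by 0.52 (SE 0.10, adjusted p 0.0026). The bromodomain proteins Kmt2a (0.46, SE 0.10, adjusted p 0.0047) and Baz2b (0.52, SE 0.12, adjusted p 0.0090) were also higher, and all 3 rose in 6 of 6 mice. Brd1, the BET protein Brdt, Brwd3 and Smarca2 were the other genes called higher, and are named after their values were seen. Of 10 tested genes of NAD supply and use, 1 was higher and 1 lower. Nmrk1, a nicotinamide riboside kinase, was the higher one (0.44, SE 0.10, adjusted p 0.0089). Nampt, the rate-limiting enzyme of NAD salvage, was the lower one (−0.22, SE 0.06, adjusted p 0.0265). Nampt lost its call with cyclic loess scaling (adjusted p 0.257) and with the replicate block (0.0567).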

How the data were processed

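RNA from 12 libraries of sorted mouse CD8 T cells was measured as read counts per gene. The deposited count table holds whole-number counts that the authors did not normalize. The submitters' processing notes name fastp 0.23.2 and STAR 2.7.10a, besides edgeR 3.36.0 and the genome GRCm39. Which counter, annotation release and strand setting were used is not given in the sources used here, and overlapping or antisense genes could not be told apart. A second deposited table holds the authors' log2 fold changes, mean log2 CPM and gene lengths for DCA against untreated cells. Per the file headers it also gives p-values and false discovery rates.

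The counts were fitted here in edgeR 4.0.16 (R 4.3.3) by quasi-likelihood, after TMM scaling and filterByExpr on the 4 groups. Adjustment was by Benjamini-Hochberg over 15688 genes, with a threshold of 0.05. The effect over both experiments had a term for experiment, and the other contrasts came from 1 fit of 4 group means. The SE of a log2 fold change was its absolute value over the root of the F statistic. All members were named, and of the other lists up to 3 genes per direction by adjusted p. The members and lists were chosen with earlier results of these data known.

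The same mouse gave both arms, per the labels. Deviations from the group means correlated at 0.0443 to 0.0834 for libraries of 1 mouse and at −0.0689 to −0.00438 for different mice. Replicates are separate mice, and chi-square tests of their counts gave 10.8 to 29.8 per degree of freedom. Depth was 28039699 to 41051066 counts, and reads without molecular identifiers are not independent molecules. Alternatives were RLE factors, cyclic loess with limma 3.58.1, limma-voom, DESeq2 1.42.0, no filter, a filter at 5 CPM in 3 libraries, a replicate block, no experiment term, 1 experiment alone and each library left out.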

Additional observations from a re-analysis of the deposited data

Results flagged for a closer look

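With DCA, Hdac4 was lower in 3 of 3 mice of experiment 1 and higher in 3 of 3 mice of experiment 2. The log2 ratios in mice 1 to 3 of experiment 1 were −0.991, −0.475 and −0.497. Those of experiment 2 were small in mice 1 and 2, at 0.036, 0.055 and 0.289, and its groups overlapped. The log2 differences were −0.64 (SE 0.14) and 0.12 (SE 0.14, adjusted p 0.721), so only the first was called. The difference of the DCA effects was 0.763 on the log2 scale (SE 0.19). The test of that difference in edgeR gave an adjusted p of 0.0926, which misses the threshold. In untreated cells Hdac4 was also lower in experiment 2 than in experiment 1 (−0.70, SE 0.14), while with DCA the experiments differed by 0.07 (SE 0.14, adjusted p 0.706).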

How the results depend on the processing

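The count of members called over both experiments was 7, and became 11 with DESeq2, 0 with no experiment term and 4 to 7 with 1 library left out. With the replicate block it was 5, with Hdac2 and Sirt6 lost. In experiment 1 the count of 10 became 6 with cyclic loess, 6 with the filter at 5 CPM, 5 with only the libraries of experiment 1 and 5 to 11 with 1 library left out. The 6 with cyclic loess and limma held Sirt6 (−0.56, adjusted p 0.0466), which was not among the 10. In experiment 2 the count of 0 became 3 with DESeq2 and 1 with each of limma-voom, no filter, the filter at 5 CPM, only the libraries of experiment 2 and the replicate block, and was 0 to 1 with 1 library left out. For the difference of effects it became 2 with DESeq2 and 1 with no filter. The count of ratio pairs was 0 with the pairing by mouse and 2 with no replicate block, and with 1 mouse left out the smallest p is 0.0625. The replicate block changed no call of a member other than those of Hdac2, Sirt6, Kat2a, Kat5, Brd3 and, in experiment 2, Sirt4. Signs that turned were of small uncalled differences, apart from Hdac2 between the untreated experiments (0.016 with cyclic loess). Over both experiments they were Hat1 (0.0017 with cyclic loess), Hdac6 (−0.015 with cyclic loess, −0.068 to 0.22 with a library left out), Sirt3 (−0.0034 to 0.14 with a library left out) and Brd7 (0.055 with cyclic loess, 0.025 with the filter at 5 CPM, −0.058 to 0.021 with a library left out). Among ratios they were Kat7 to Kat8 (−0.024 to 0.085), Brd2 to Brd3 (−0.048 to 0.16) and Brd7 to Brd9 (−0.00085 to 0.19), each with 1 mouse left out. The causes were not tested. Over all genes the calls in experiment 1 were 1251 with only its own libraries, and those in experiment 2 were 1512 with DESeq2, 1171 with limma-voom, 1116 with no filter and 1564 with only its own libraries. The 717 calls in experiment 2 became 210 without replicate 2 of its untreated group, and 260 and 271 without replicates 1 and 2 of its DCA group. The 52 calls for the difference of effects became 1 to 217 with 1 library left out, 458 with DESeq2 and 566 with no filter. Counting limits apply most to Kat6b and Hdac5, the least abundant members.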
